A study of Rattus norvegicus with 10 samples.

Results

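The genes described here encode the machinery by which newly made secretory and membrane proteins enter the endoplasmic reticulum (ER), and the enzyme that then trims their signal peptides. There were 10 of them: Sec61a1, Sec61b, Sec61g, Sec63, Ssr1, Ssr2, Ssr3, Srpr, Spcs2 and Sec11c. They were found among 15154 genes named on the array, as every probe other than a control whose listed transcript belongs to one of these genes. This gave 14 probes, with 2 probes each for Sec61g, Ssr1, Srpr and Spcs2. The cells were PCCl3, an established line of rat thyroid follicular cells that keeps much of its thyroid character when grown in dishes. Groups were cells given 25 nM of a pool of siRNAs against FoxE1 (siFoxE1), cells given a non-targeting pool (siScramble) and untreated wild type cells (wt), and all grew in the same medium with serum and hormones, thyrotropin included. RNA was taken 48 h after transfection and hybridized to 10 arrays that each hold 2 samples in 2 dyes. siFoxE1 was set against siScramble on 5 of them and against wt on the other 5. Of every 5, 4 arrays held separate cultures, numbered 1 to 4, with siFoxE1 in Cy5, and 1 array held the pooled RNA of the same cultures with the dyes swapped. The same siFoxE1 extract of a number was used against both references, so the comparisons are not independent of each other.

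A protein bound for secretion is recognised by its signal sequence while it is still being made. The signal recognition particle carries the ribosome to its receptor in the ER membrane, of which Srpr is the alpha subunit, and hands it to the Sec61 channel. Sec63 brings the lumenal chaperone BiP to that channel, the translocon-associated protein complex made of Ssr proteins sits beside it, and signal peptidase cuts off the signal sequence. Thyroid follicular cells depend on this route for thyroglobulin, the secreted precursor of thyroid hormone, which they make in large amounts. Several of these genes are known targets of the unfolded protein response, through which cells enlarge the ER when unfolded proteins build up.

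All values below are log2 ratios of siFoxE1 over its reference, or log2 intensities, after loess and quantile normalization, so a ratio of 0 means equal brightness and negative ratios mean less signal in siFoxE1. The direction follows the dyes named in the sample labels. A drawing of the design in the study gives the dyes the other way round, and with the labels' dyes the targeted transcript Foxe1 lay below 0 on all 10 arrays, at -0.77, -0.46, -0.62 and -0.39 against siScramble and -1.03 in its pool, and at -0.52, -0.55, -0.35 and -0.62 against wt and -1.21 in its pool. Foxe1 fell in both comparisons, at -0.79 against siScramble (fitted log2 ratio, adjusted p = 0.0226) and at -0.86 against wt (adjusted p = 0.0326). All 7 thyroid markers examined were well above background on every array, as were 3 of 7 fibroblast markers (Col1a1, Col1a2 and Pdgfra) and 3 of 6 leukocyte markers (Csf1r, Cd68 and Cd14), whereas 2 of 7 fibroblast markers (Dcn and Lum) and 2 of 6 leukocyte markers (Ptprc and Itgam) were so on none. On each array 60.6 to 68.2% of spots in Cy3 and 56.8 to 60.3% in Cy5 were well above background, and no spot was saturated. Precision is limited by how few arrays there are. Of the 14 probes described here, 13 were well above background on all 10 arrays in both channels. The exception was the dimmer Spcs2 probe (A_64_P029043), which was so on 7 of 10 arrays in the siFoxE1 channel. The only spot of Ssr2 was marked as an outlier by the scanner software on the array of culture 3 against siScramble, so Ssr2 has no value there and its fit rests on 4 arrays. These are RNA levels of whole cultures, in which fewer cells expressing a gene and less RNA per cell cannot be told apart.

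The Sec61 channel is built of 3 subunits. Sec61a1, which forms the pore itself, had ratios of 0.09, -0.10, -0.74 and -0.54 in cultures 1 to 4 against siScramble and -0.59 in the pool, and of -0.47, -0.08, -1.49 and -0.97 against wt and -0.53 in the pool. It was therefore near its reference in culture 2 in both comparisons and lowest in culture 3, where the signal was 1.67-fold lower than in siScramble and 2.81-fold lower than in wt. Sec61b, a small subunit with 1 membrane span, had ratios of -0.06, -0.12, -0.35 and -0.71 against siScramble with -0.08 in the pool, and of -0.07, -0.02, -0.74 and -0.79 against wt with -0.56 in the pool. All 10 of its values were below 0, and cultures 3 and 4 again lay below cultures 1 and 2 in both comparisons. Sec61g, the other small subunit, stayed much closer to 0. Its brighter probe gave 0.04, -0.02, -0.01 and -0.12 against siScramble with -0.05 in the pool, and -0.07, 0.02, -0.15 and -0.28 against wt with -0.33 in the pool. The second Sec61g probe (A_64_P025211) had fitted ratios of -0.08 and -0.22, as small as those of the first. The 3 subunits of this channel thus did not share one size of ratio, with Sec61a1 reaching -1.49 and Sec61g no lower than -0.33.

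**Figure D1:**
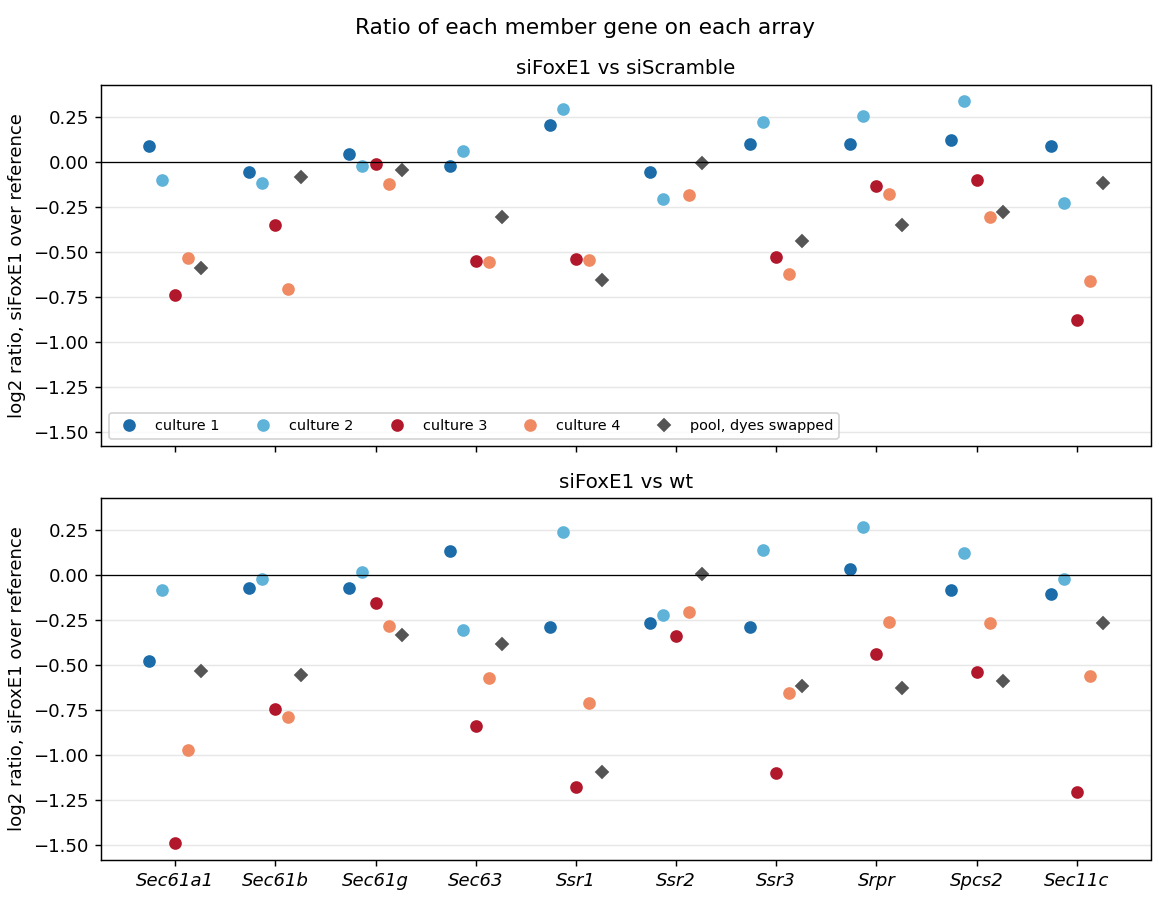
Log2 ratio of siFoxE1 over its reference (vertical axis) for the 10 genes (horizontal axis) at the representative probe, with 1 point per array, siScramble as the reference in the upper panel and wt in the lower. Circles are cultures 1 to 4 and diamonds are pooled RNA with swapped dyes; for Sec61a1, Sec63, Ssr1, Ssr3 and Sec11c the red points of cultures 3 and 4 lie well below the blue points of cultures 1 and 2, while Sec61g and Ssr2 stay close to 0.

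Sec63, the membrane protein whose J domain recruits BiP, had ratios of -0.03, 0.06, -0.55 and -0.56 against siScramble with -0.30 in the pool, and of 0.14, -0.31, -0.84 and -0.57 against wt with -0.38 in the pool. Its values in cultures 3 and 4 did not overlap those of cultures 1 and 2 in either comparison. Srpr, the receptor subunit that docks the ribosome at the membrane (Srpra in the current annotation), had ratios of 0.10, 0.26, -0.14 and -0.18 against siScramble with -0.35 in the pool, and of 0.04, 0.27, -0.44 and -0.26 against wt with -0.63 in the pool. Its sign turned between cultures 1 and 2, which were above 0, and cultures 3 and 4, which were below 0, in both comparisons. The second, dimmer Srpr probe (A_44_P324042) was below 0 in the same cultures 3 and 4, with its lowest value of -0.74 in culture 3 against wt, and lay at -0.40 and -0.39 in the pools. Unlike the brighter probe it was also below 0 in culture 1, at -0.01 against siScramble and -0.30 against wt.

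Among the translocon-associated proteins, Ssr1, the alpha subunit, gave 0.20, 0.29, -0.54 and -0.55 against siScramble with -0.66 in the pool at its brighter probe, and -0.29, 0.24, -1.17 and -0.71 against wt with -1.09 in the pool. The signal in culture 3 was 2.26-fold lower than in wt and that in culture 4 was 1.64-fold lower. The other Ssr1 probe (A_44_P346572) was below 0 on all 10 arrays, at -0.15 and -0.23 in cultures 1 and 2 against siScramble, where the brighter probe was above 0, so the probes differed in the cultures with small ratios. Ssr3, the gamma subunit, gave 0.10, 0.22, -0.53 and -0.63 against siScramble with -0.44 in the pool, and -0.29, 0.14, -1.10 and -0.66 against wt with -0.61 in the pool. It followed Ssr1 array by array, with culture 2 above 0 and cultures 3 and 4 below -0.50 in both comparisons. Ssr2, the beta subunit of the same complex, did not. Its ratios were -0.06, -0.20 and -0.18 in cultures 1, 2 and 4 against siScramble with -0.01 in the pool, and -0.27, -0.22, -0.34 and -0.20 against wt with 0.01 in the pool, a range within which cultures 3 and 4 overlapped cultures 1 and 2.

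Of the signal peptidase subunits, Sec11c, a catalytic subunit, had ratios of 0.09, -0.23, -0.88 and -0.66 against siScramble with -0.12 in the pool, and of -0.11, -0.02, -1.20 and -0.56 against wt with -0.26 in the pool. Its signal in culture 3 was 1.84-fold lower than in siScramble and 2.30-fold lower than in wt. The pools, which mix the same 4 cultures, were closer to 0 for Sec11c than the mean of the individual arrays, which was -0.42 ± 0.43 (SD, n = 4) against siScramble and -0.47 ± 0.54 against wt. Spcs2, a subunit without catalytic activity, had ratios of 0.12, 0.34, -0.10 and -0.30 against siScramble with -0.28 in the pool, and of -0.08, 0.12, -0.54 and -0.26 against wt with -0.59 in the pool at its brighter probe. Cultures 3 and 4 were again below cultures 1 and 2, but by less than for Sec11c. The dim Spcs2 probe, close to background, had fitted ratios of -0.17 and -0.03.

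Set against siScramble, all 10 genes had a fitted ratio below 0, with a median of -0.23 at the representative probes beside 0.00 for all genes tested, and none passed the test. The fit averages the mean of the 4 individual arrays with the dye-swapped pool, so that the pool carries as much weight as the cultures together. In limma, 0 of the 14 probes had an adjusted p under 0.05, against 0.0827% of all 18139 probes called lower and 0.0386% called higher, and the smallest adjusted p among them was 0.255. At an unadjusted p under 0.05 there were 3 of 14 probes, beside 13.1% of all probes. The strongest fitted ratio was that of Sec61a1, at -0.46 (95% confidence interval -0.80 to -0.11, adjusted p = 0.28), which is 1.37-fold lower. Ssr1 followed at -0.40 (-0.80 to -0.0048, adjusted p = 0.374) and Ssr3 at -0.32 (-0.70 to 0.05, adjusted p = 0.445). For Sec61g the fitted ratio was -0.04 with an interval from -0.19 to 0.12 (adjusted p = 0.872). This order depended on the pool, since on the 4 individual arrays alone Sec11c was lowest at -0.42, followed by Sec61a1 at -0.32 and Sec61b at -0.31, while Ssr1 lay at -0.15 and none passed (smallest adjusted p = 0.13 in limma). The arrays of culture 3 and of the pool lay on a second slide. With slide as a term the median of the 10 genes was -0.06 in place of -0.23 and no gene passed. The dye term already takes up the pool, so the slide term rests on culture 3 alone and cannot be told apart from it. On the first slide alone, the mean over the 9 genes measured on all arrays was 0.07 and 0.08 in cultures 1 and 2. It was -0.47 in culture 4. Against wt, culture 3 lay on the first slide too, with a mean of -0.85 over these 9 genes.

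Set against wt, the 10 genes were again all below 0, with a median of -0.39 beside 0.00 for all genes tested. No probe of the 14 was called in the fit of these 5 arrays, against 0.0432% of all 18526 probes called lower and 0.0054% called higher, and their adjusted p values ran from 0.239 to 0.833. At an unadjusted p under 0.05 there were 9 of 14 probes, beside 17.2% of all probes. Ssr1 had the strongest fitted ratio, at -0.79 (95% confidence interval -1.35 to -0.22, adjusted p = 0.239), or 1.73-fold lower. Sec61a1 lay at -0.64 (-1.21 to -0.07, adjusted p = 0.262), Ssr3 at -0.54 (-1.04 to -0.05, adjusted p = 0.27) and Sec61b at -0.48 (-0.89 to -0.08, adjusted p = 0.251). Spcs2 at -0.39, Sec63 at -0.39, Sec11c at -0.37 and Srpr at -0.36 formed a middle group, and Sec61g at -0.23 and Ssr2 at -0.12 were nearest to 0. Here too the order depended on the pool. On the 4 individual arrays alone Sec61a1 was lowest at -0.75, Ssr1 lay at -0.48, Ssr2 at -0.26, Spcs2 at -0.19 and Sec61g at -0.12, and Srpr was nearest to 0 at -0.10. None passed there, and the smallest adjusted p in limma was that of Ssr2 (0.0689), followed by Sec61a1 (0.0881). When all 10 arrays were fitted together with the replicate number as a block, Ssr1 (-0.77, adjusted p = 0.0283) and Sec61a1 (-0.72, adjusted p = 0.0418) passed against wt, where 8.26% of all 17804 probes were called. The same 2 genes passed in that joint fit without the block, at adjusted p = 0.0422 and 0.0488, where 9.34% of all probes were called.

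**Figure D2:**
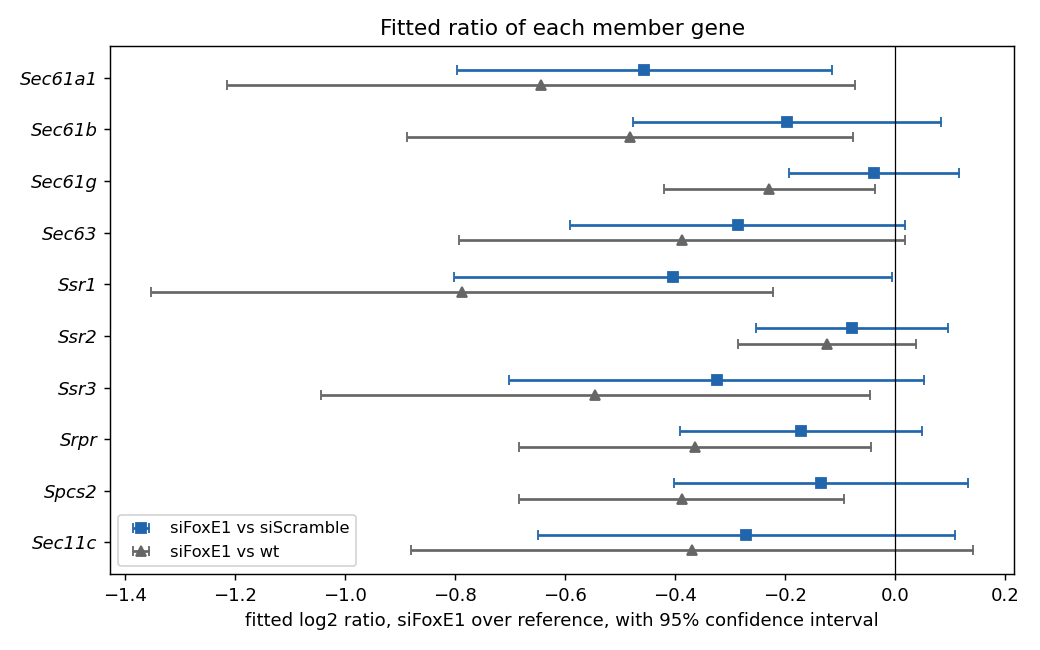
Fitted log2 ratio of siFoxE1 over its reference (horizontal axis) with its 95% confidence interval for the 10 genes (vertical axis), squares for siScramble as the reference and triangles for wt, n = 4 cultures and 1 pool each, except Ssr2 against siScramble with 3 cultures and 1 pool. All 20 estimates lie below 0, from -0.79 for Ssr1 against wt to -0.04 for Sec61g against siScramble, and none passed after adjustment over all probes.

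No array held siScramble beside wt, so these references were compared through the shared siFoxE1 samples, in one fit of all 10 arrays. The siScramble over wt ratio was below 0 for all 10 genes, with a median of -0.16, beside 0.00 for all genes tested. None of the 14 probes passed, as was so for all 17804 probes (0%), with adjusted p values of 0.988 to 0.992 for the probes described here, and none of the 14 had an unadjusted p under 0.05, against 3.4% of all probes. With the replicate number as a block none of the 10 genes passed (smallest adjusted p = 0.37), and 4 of 10 (Spcs2, Ssr1, Sec61g and Sec61a1) had an unadjusted p under 0.05, against 12.3% of all probes. The lowest values were those of Ssr1, at -0.35 ± 0.26 (SE), and Sec61a1, at -0.33 ± 0.25 (SE).

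The ratios differed from culture to culture. The mean of both arrays of a culture had a median over the genes of -0.03 in culture 1 and -0.04 in culture 2, but -0.69 in culture 3 and -0.59 in culture 4. In culture 3 all 9 genes with a value on both arrays were below 0, from -1.11 for Sec61a1 to -0.08 for Sec61g, and in culture 4 all 10 were. Cultures 3 and 4 both lay below cultures 1 and 2 in 8 of 9 genes against siScramble, the exception being Sec61g, and in 9 of 10 against wt, the exception being Ssr2. Over all genes tested that order held for 27.5% against siScramble and 24.3% against wt. This split of the cultures was read from the data and carries no test of its own.

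The replicate number itself was tested in limma with an F test over the 8 individual arrays, with the comparison as a covariate. The ratio differed between numbers for 10 of 14 probes, against 28.2% of all 17804 probes, and at the representative probe for 8 of 10 genes, against 32% of all genes. The smallest adjusted p values belonged to Ssr1 (0.00267), Sec11c (0.003), Ssr3 (0.00339), Sec61a1 (0.00489), Sec61b (0.00639) and Sec63 (0.00786), followed by Srpr (0.0111) and Spcs2 (0.0168). Sec61g (adjusted p = 0.293) and Ssr2 (adjusted p = 0.806, with its missing array dropped) did not pass. Both arrays of a number share 1 siFoxE1 extract, so the test speaks of these extracts and cultures, not of the treatment. With the processed signals of the scanner software in place of the corrected medians no member passed. Their adjusted p values ran from 0.063 upward, and 0.618% of all probes were called. In that setting 8 of 10 genes had an unadjusted p under 0.05, as had 6373 of all 17804 probes.

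The levels behind these ratios showed which side differed. For Sec11c, the siFoxE1 level in cultures 1 to 4 was 14.88, 13.78, 13.76 and 13.83 (log2 intensity), against 14.82, 14.05, 14.71 and 14.58 in siScramble and 15.06, 13.85, 15.04 and 14.49 in wt. Culture 1 was thus high in all 3 conditions and culture 2 low in all 3, while in cultures 3 and 4 siFoxE1 was as low as in culture 2 and both references were higher. For Ssr3 the siFoxE1 level was 12.64, 11.53, 11.24 and 11.43, against 12.58, 11.30, 11.88 and 12.09 in siScramble and 12.93, 11.40, 12.37 and 12.10 in wt. For Ssr1 it was 13.28, 12.53, 11.93 and 12.07, against 13.15, 12.21, 12.52 and 12.65 in siScramble and 13.59, 12.34, 13.18 and 12.81 in wt. Both genes had their lowest siFoxE1 level in culture 3 and their lowest level in siScramble and in wt in culture 2. For Sec61a1 the siFoxE1 level was 9.44, 8.07, 8.29 and 8.50, against 9.28, 8.13, 8.99 and 9.05 in siScramble and 9.94, 8.18, 9.85 and 9.42 in wt. Here culture 2 was the lowest in every condition, and the 3 conditions lay within a narrow range there.

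The remaining members varied in the same way with some exceptions. For Sec61b the siFoxE1 level was 12.37, 11.61, 11.12 and 10.92 in cultures 1 to 4, against 12.48, 11.72, 11.48 and 11.68 in siScramble and 12.43, 11.64, 11.98 and 11.67 in wt. For Sec63 it was 10.65, 9.66, 9.23 and 9.43, against 10.65, 9.66, 9.74 and 9.96 in siScramble and 10.54, 9.88, 10.12 and 10.00 in wt. In both genes the siFoxE1 level of cultures 3 and 4 was below that of every reference culture. For Srpr it was 13.51, 12.94, 12.71 and 12.72, against 13.50, 12.74, 12.86 and 12.96 in siScramble and 13.50, 12.72, 13.22 and 13.02 in wt, and siFoxE1 lay above both references in culture 2 and, barely, in culture 1. For Spcs2 it was 11.96, 11.29, 10.95 and 11.11, against 11.86, 11.02, 11.11 and 11.28 in siScramble and 12.03, 11.11, 11.57 and 11.57 in wt, with siFoxE1 above both references in culture 2 only. Sec61g was lowest in culture 4 in every condition, at 13.34 in siFoxE1, against 13.52 in siScramble and 13.69 in wt, and highest in culture 1, at 14.08, against 14.12 and 14.24. Ssr2, with no value for siFoxE1 and siScramble in culture 3, was at 12.71, 12.41 and 12.73 in siFoxE1 in cultures 1, 2 and 4, against 12.83, 12.60 and 12.91 in siScramble and 12.98, 12.70 and 13.05 in wt. It was below both references in each of these 3 cultures.

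**Figure D3:**
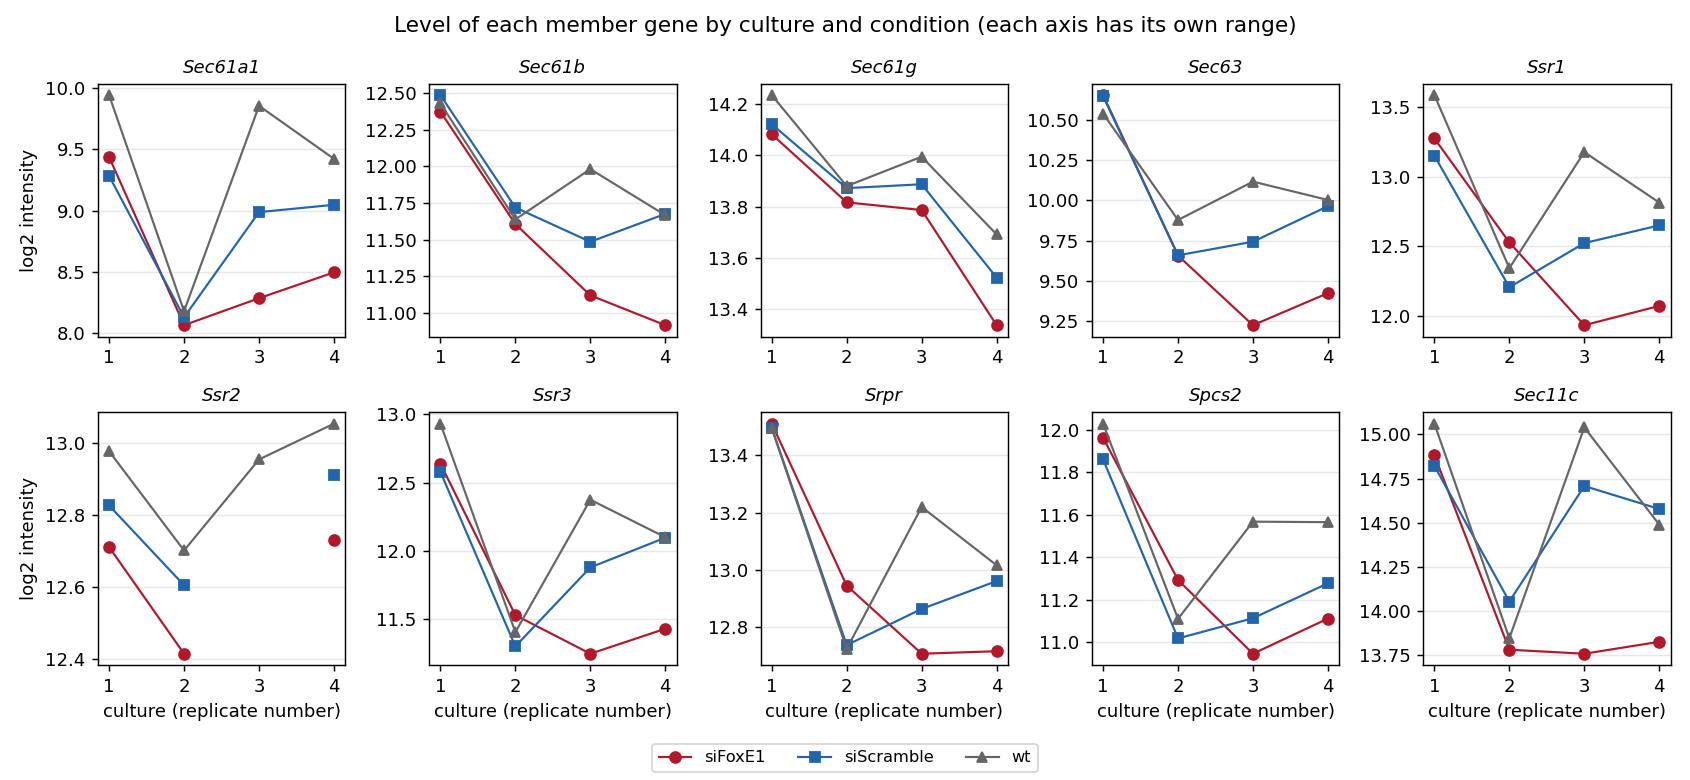
Level of each of the 10 genes (vertical axis, log2 intensity, with its own range per panel) in cultures 1 to 4 (horizontal axis), for siFoxE1 (red circles, mean of its 2 arrays), siScramble (blue squares) and wt (grey triangles), 1 culture per point, with no point for siFoxE1 and siScramble in culture 3 for Ssr2. In most panels all 3 conditions are high in culture 1 and low in culture 2, and the siFoxE1 line stays low in cultures 3 and 4 where the references are higher.

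Over the 9 genes measured on all arrays the mean siFoxE1 level was 12.53, 11.69, 11.45 and 11.48 in cultures 1 to 4, against 12.49, 11.63, 11.91 and 11.97 in siScramble and 12.69, 11.67, 12.37 and 12.09 in wt. Culture 1 was the highest for all 9 genes in each of the 3 conditions. The lowest siFoxE1 level was in culture 3 for 6 genes, in culture 4 for 2 and in culture 2 for 1, whereas the lowest level was in culture 2 for 7 of 9 genes in siScramble and for 8 of 9 in wt. The range over the 4 cultures had a median of 1.34 log2 units for these genes in siFoxE1, beside 0.43 for all genes, of 0.95 in siScramble, beside 0.42, and of 0.85 in wt over all 10 genes, beside 0.40. At the representative probes, the same siFoxE1 extract read on its 2 arrays differed by at most 0.04 to 0.32 log2 units, depending on the gene, which was at least 3.22 times less than the range of that gene over the cultures. At the dim Spcs2 probe the arrays differed by up to 0.44, more than its range of 0.24 over the cultures. Each reference extract of a culture was read on 1 array, so it has no such measure. The level of the references alone also differed between numbers, in 12 of 14 probes against 36.7% of all probes and in 9 of 10 genes against 43.1% of all genes. Ssr3 had the smallest adjusted p (0.00425) and Ssr2 did not pass (0.081). The number of calls moved with the cultures used, as 3 genes passed without culture 1 (21% of all probes called) and 2 without culture 2 (2.96% of all probes called), against 10 without culture 3 (43% of all probes) and 8 without culture 4 (25.7% of all probes). At an unadjusted p under 0.05 there were 7 of 10 genes without culture 1 (39.2% of all probes), 8 without culture 2 (26.3%), 10 without culture 3 (52.9%) and 9 without culture 4 (41.6%), beside 10 with all 4 cultures (48.5%). Without culture 2 the F value of Sec61b was 17.79 in place of 13.13 and that of Sec61g 21.07 in place of 16.00, while that of Sec61a1 was 4.27 in place of 25.46.

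The lumenal chaperones that pull or fold the incoming chains spread over a wider range of ratios than the translocon genes. Hspa5, which encodes BiP, had ratios of -0.42, -0.16, -3.24 and -1.36 against siScramble with -0.83 in the pool, and of 0.07, -0.08, -3.94 and -1.21 against wt with -0.64 in the pool. Its siFoxE1 level was 16.82, 13.66, 13.22 and 15.80 in cultures 1 to 4, against 16.82, 13.84, 16.53 and 17.07 in siScramble and 16.51, 13.80, 17.03 and 16.90 in wt. Like the translocon genes it was low in culture 2 in all 3 conditions and low in siFoxE1 in culture 3, but in culture 4 it stayed above its culture 2 level. Of the 7 chaperone genes tested none passed in either comparison, 6 lay below 0 in each, and the medians were -0.75 against siScramble and -0.96 against wt. Hyou1, a nucleotide exchange factor of BiP, lay at -0.75 and -1.42, and the J-domain proteins Dnajc3 at -0.87 and -1.19 and Dnajb9 at -0.76 and -1.05. The gene above 0 was Sil1, at 0.01 and 0.15. In 6 of the 7 the ratio differed between numbers, beside 32% of all genes tested.

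Of the neighbouring machinery, oligosaccharyltransferase, which adds sugar chains to proteins as they enter the ER, was the most alike in size. Its 10 genes tested had medians of -0.17 against siScramble and -0.36 against wt, and 9 of them lay below 0 in each comparison. The ratio differed between numbers for 8 of the 10, beside 32% of all genes tested. These 8 include Dad1, which went the other way, at 0.12 and 0.27, with 0.37 and 0.60 in culture 3. Ostc, a subunit that ties the enzyme to the translocon, lay at -0.48 and -0.76, the catalytic subunit Stt3a at -0.34 and -0.67, Magt1 at -0.32 and -0.60 and Rpn1 at -0.15 and -0.51. Other translocon and signal peptidase subunits had smaller ratios, with medians of -0.12 and -0.13 over 6 genes. Their ratio differed between numbers for 2 of 6, near the 32% of all genes tested. Spcs3, a further signal peptidase subunit, lay at -0.28 and -0.43, Srprb, the partner of Srpr, at -0.29 and -0.37, Sec61a2, a second form of the pore, at -0.11 and -0.15, and the catalytic subunit Sec11a at -0.13 and -0.11. The signal recognition particle had medians of -0.17 and -0.26 over 6 genes. Srp72 lay at -0.35 and -0.50, the GTPase subunit Srp54a at -0.32 and -0.46, Srp19 at -0.17 and -0.30 and Srp9 at -0.16 and -0.20. Above 0 lay Srp14, at 0.19 and 0.11. In this list 3 of 6 differed between numbers, beside the same 32%. No gene of these 3 lists passed in either comparison.

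Routes into membranes that do not use the Sec61 channel, or use it only in part, had medians near 0, as had cytosolic ribosomal proteins, which are not such a route. The median over the 9 genes of the ER membrane protein complex was -0.02 against siScramble and -0.05 against wt, and over the 7 genes of tail-anchored protein insertion it was -0.04 and -0.03. Over 14 mitochondrial import genes it was -0.01 and -0.01, and over 22 cytosolic ribosomal proteins it was 0.00 and -0.01. None of their genes passed in either comparison. The ratio differed between numbers for 4 of 9, 0 of 7, 3 of 14 and 2 of 22 of them, beside 32% of all genes tested. In culture 3 against wt, the median was -0.79 for the 10 translocon and signal peptidase genes, -3.01 for the chaperones and -0.85 for oligosaccharyltransferase, but 0.15 for the ER membrane protein complex and 0.06 for mitochondrial import. Genes of the ER membrane protein complex lay on both sides of 0 there, from -0.82 for Emc2 and -0.36 for Mmgt1 to 0.43 for Emc8 and 0.44 for Emc9. The thyroid markers had medians of -0.21 and -0.27 over 7 genes, with Slc5a5 at -0.31 and -0.65 below 0 and Pax8 at 0.20 and 0.33 and Nkx2-1 at 0.17 and 0.18 above it, and Foxe1 was the gene called. The fibroblast markers had medians of 0.08 and 0.02 over 3 genes tested and the leukocyte markers of 0.01 and -0.07 over 3, of which Cd68 was called against siScramble (-0.66, adjusted p = 0.0147). That value came from the pool, at -1.34, since Cd68 lay between -0.0048 and 0.10 in cultures 1 to 4. Their part in the ratios of the translocon genes was not tested.

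**Figure D4:**
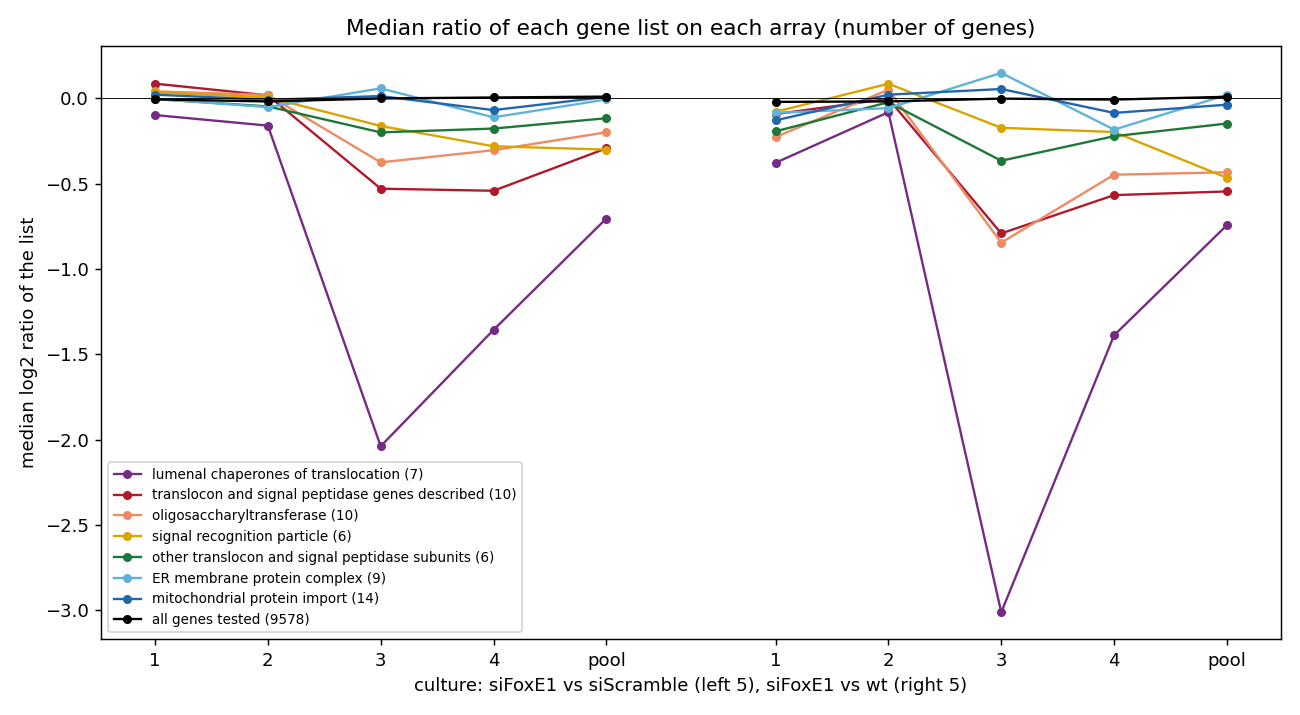
Median log2 ratio of siFoxE1 over its reference (vertical axis) of 7 gene lists and of all genes tested, on each of the 10 arrays (horizontal axis, cultures 1 to 4 and the pool, siScramble as the reference on the left and wt on the right), with the number of genes in the legend. The translocon and signal peptidase genes and oligosaccharyltransferase lie further apart in culture 3 against siScramble, at -0.53 and -0.37, than against wt, at -0.79 and -0.85. The chaperones reach -3.01 in culture 3 against wt, and all genes tested stay near 0.

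Among themselves, the members differed in how closely they followed the rest. Over the 10 arrays, which share cultures and siFoxE1 extracts, Pearson's r of a gene with the mean of the other members was 0.98 for Ssr3, 0.94 for Ssr1, 0.90 for Sec61a1, 0.89 for Spcs2, 0.84 for Sec61b, 0.84 for Srpr, 0.83 for Sec63 and 0.76 for Sec11c. It was 0.69 for Sec61g and 0.16 for Ssr2, which has a value on 9 arrays. Outside the members, the 5 genes whose ratios were most alike to the mean of the members were Dennd10 (r = 0.98), Tasp1 (r = 0.98), Zfp142 (r = 0.98), Tmed2 (r = 0.98) and Zfp330 (r = 0.98), each over 10 arrays. Tmed2, a cargo receptor of vesicles between the ER and the Golgi apparatus, had ratios of 0.10, 0.29, -0.54 and -0.49 against siScramble with -0.46 in the pool, and of -0.10, 0.29, -0.97 and -0.58 against wt with -0.56 in the pool.

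Promoter sequences are shown for a pair of genes that followed the other members closely and for one that did not pass between numbers, because the unfolded protein response acts through short elements near the start of transcription. Windows of 250 bases before to 50 after the start were taken from RefSeq (GRCr8), which gave 9 of the 10 genes. Sec61a1 had no entry. Capitals mark CCAAT and CCACG, the ends of the ER stress element, which lie 9 bases apart in it, in either strand's reading. The first and the second window belong to Ssr1 (chr17:27039043-27039342, plus strand) and Ssr3 (chr2:151935113-151935412, minus strand), and the third to Sec61g (chr14:95119409-95119708, minus strand).
Ssr1: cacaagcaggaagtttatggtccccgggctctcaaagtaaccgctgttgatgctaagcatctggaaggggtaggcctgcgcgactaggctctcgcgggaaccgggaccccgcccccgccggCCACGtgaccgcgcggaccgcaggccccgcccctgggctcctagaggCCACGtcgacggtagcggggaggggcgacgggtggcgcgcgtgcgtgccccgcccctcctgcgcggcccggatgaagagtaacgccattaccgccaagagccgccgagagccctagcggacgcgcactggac
Ssr3: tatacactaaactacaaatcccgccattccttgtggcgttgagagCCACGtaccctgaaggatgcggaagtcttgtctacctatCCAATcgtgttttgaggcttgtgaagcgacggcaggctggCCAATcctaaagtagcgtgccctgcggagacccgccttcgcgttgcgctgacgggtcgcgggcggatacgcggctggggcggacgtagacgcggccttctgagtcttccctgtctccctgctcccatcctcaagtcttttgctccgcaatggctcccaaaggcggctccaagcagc
Sec61g: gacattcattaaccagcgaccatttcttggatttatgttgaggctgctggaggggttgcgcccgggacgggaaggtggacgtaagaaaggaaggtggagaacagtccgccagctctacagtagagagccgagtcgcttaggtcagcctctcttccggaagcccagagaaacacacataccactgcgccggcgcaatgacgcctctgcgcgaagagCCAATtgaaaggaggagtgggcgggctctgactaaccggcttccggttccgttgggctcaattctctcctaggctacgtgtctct
For comparison, the Hspa5 promoter (chr3:38452968-38452996, plus strand) held the whole element from position -43 to -25, printed here with 5 bases on either side.
Hspa5: gttcaCCAATcggaggcctCCACGacggg

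Searched on both strands, the whole ER stress element was in 0 of the 9 windows, against 22 of all 33469 windows of this length (0.0657%). CCAAT was in 3 of 9 (Sec61g, Ssr3 and Spcs2), against 37.5% of all windows, and CCACG in 5 of 9 (Sec63, Ssr1, Ssr3, Spcs2 and Sec11c), against 31.6%. Ssr3 held CCAAT at -166 to -162 and at -126 to -122 and CCACG at -205 to -201, in an order and at distances that do not make up the whole element. Ssr1 held CCACG at -129 to -125 and at -82 to -78 and no CCAAT. These positions count from the start used for its window, and the annotated Ssr1 gene begins upstream of that start, at chr17:27039203. The unfolded protein response element TGACGTGG, whose last 5 letters are CCACG read on the other strand, was in 0 of 9 against 0.595% of all windows, and the amino acid response element TGATGNAA was in 0 of 9 against 3.98%. A match is only a match of letters, and its absence says only that these letters are not in this window.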

How the data were processed

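RNA of PCCl3 cells was measured on 10 Agilent rat 60K arrays with 2 dyes. The authors scanned them and quantified the spots with Feature Extraction 10.7.3.1. The deposited files hold spot and background intensity (median), processed signals and a log10 ratio of red over green. The authors' software computed that ratio after background subtraction and dye normalization, and it entered none of the fits here. A deposited series matrix holds the authors' log2 ratios after loess and quantile steps (limma 3.2.3 in the submitters' notes). Its columns followed siFoxE1 over reference, with r of 0.63 to 0.78 across probes to the scanner ratios, and medians near 0.

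Median signals were used because mean signals, which the plan named first, were not among the columns. Control spots were dropped, as were outlier spots (1.25 to 1.6% per array). The background step was normexp (offset 50), followed by loess and quantile normalization (Aquantile for levels), means per probe and tests in limma 3.58.1 (R 4.3.3 with the packages data.table, 1.17.8, and jsonlite, 2.0.0) on probes well above background on at least 3 of 5 arrays in either channel, with a dye term and 3 residual degrees of freedom. The p values were adjusted by Benjamini-Hochberg across every probe in the fit and called under 0.05. Of 30367 probes, 17998 were named through the RefSeq accession of their transcript (GRCr8). Each gene is represented by its brightest tested probe. Probe positions are not given, because the array design uses another build (rn4 in the file headers), and promoter windows carry GRCr8 positions. Named genes were all members with every probe, up to 4 per other list by the size of the ratio averaged over both comparisons, Foxe1, Hspa5 and the 5 most alike genes. Dad1, Srp14 and Sil1 are also named, as they lay above 0 where the rest of their list lay below it. The members and gene lists were chosen with earlier results of these data known. The labels call the replicates biological, and nothing used here says whether their cultures were independent beyond that, so p values measure the spread between these samples. In the main fit of each comparison the dye term fits the pool exactly, so that spread is of the 4 individual arrays only.

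The replicate numbers pair the samples, because the study's design shows 1 siFoxE1 sample for both arrays of a number. Across probes, the deviations of an array from its comparison's mean had r = 0.62, 0.76, 0.76 and 0.41 with those of its partner for numbers 1 to 4, and -0.65 to 0.51 for arrays of unlike number. For number 4 the pairing therefore rests on the design. The block was fitted by duplicateCorrelation (0.54). Each fit was tested on simulated data. Alternatives were other signals, normalizations, filters, dye, slide and block terms, and leaving out each culture. Summaries and plots used Python 3.11.15 with pandas 2.3.3 and matplotlib 3.10.9.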

Additional observations from a re-analysis of the deposited data

Results flagged for a closer look

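The siFoxE1 level of Sec11c in culture 1 was 14.88 (log2 intensity), whereas cultures 2 to 4 lay between 13.76 and 13.83, a gap that makes up 0.94 of the whole range and exceeds Dixon's 95% critical value for 4 samples. It was the 1 gap of this kind among 55 groups of 4 values examined, and chance alone gives about 1 in 20. The same culture was also the highest for Sec11c in siScramble, at 14.82, and in wt, at 15.06, where culture 3 was close to it at 14.71 and 15.04.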

How the results depend on the processing

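Against siScramble the 10 genes had 0 calls under all 16 alternatives, with a smallest adjusted p of 0.0922 to 1. Their median ratio ran from -0.28 to -0.06, nearest to 0 with slide as a term, which rests on culture 3 alone. In that comparison 3 of 159 single values changed sign, none of them called: Srpr (0.01) and Spcs2 (0.01) on the 4 individual arrays only, and Sec11c (0.11) with slide as a term. Against wt, 0 genes were called under 13 of 15 alternatives, with a median ratio from -0.45 to -0.32, and 2 genes (Ssr1 and Sec61a1) were called when all 10 arrays were fitted together, both with the replicate block and with no replicate block. Within that joint fit the replicate block changed no call of the 10 genes, and single values of other genes were not taken from it. The count of probes called among all probes also moved, against wt to 1471 with the block and 1663 without it, to 849 with no dye term and to 225 on the individual arrays only, in place of 9, and against siScramble to 691 with no dye term, 524 on the individual arrays only and 64 with the block, in place of 22. Against siScramble it was 12 to 35 with 1 culture left out and against wt 0 to 65. With the processed signals, and with a robust fit and an intensity trend, 0 probes were called in either comparison, and with slide as a term 5 were called against siScramble. siScramble vs wt gave 0 genes under all 7 alternatives and 11 of all probes with the block.

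Between numbers, the ratio gave 8 genes, 0 with processed signals (110 of all probes in place of 5021) and 6 to 8 with 1 culture left out, where Srpr and Spcs2 were lost without culture 2. Of all 17804 probes, 1933 were called without culture 2, and 3576, 2578 and 5477 without cultures 1, 3 and 4. The reference level gave 9 genes and 2 to 10 with 1 culture left out. The cause of these shifts was not tested. The robust fit gave no value for Ssr2 against siScramble. With 4 cultures and 1 pool per comparison, 3 residual degrees of freedom remained.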
